A study of Mus musculus with 217 samples.

Results

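The genes described here set vascular tone from the endothelium, the cell layer that lines every blood vessel. They are the 2 nitric oxide synthases Nos3 and Nos2, the cofactor enzyme Gch1, the endothelin genes Edn1 and Ece1, the peptidase gene Ace, the peptide Adm with its receptor Calcrl, and the 2 dimethylarginine hydrolases Ddah1 and Ddah2. They were picked by symbol, and each of the 10 matched 1 of the 52550 genes in the deposited tables. Their levels were followed in brain, lung and heart endothelium of mice given lipopolysaccharide (LPS), the outer membrane component of Gram-negative bacteria.

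Nitric oxide made by NOS3 in endothelial cells relaxes the smooth muscle below them, and the enzyme needs tetrahydrobiopterin, whose synthesis is limited by GCH1. Asymmetric dimethylarginine blocks nitric oxide synthases and is broken down by DDAH enzymes. Endothelin, cut to its active form by ECE1, constricts vessels, ACE makes the constrictor angiotensin II and degrades the dilator bradykinin, and adrenomedullin dilates vessels through CALCRL paired with a RAMP protein.

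All animals were adult C57BL/6J mice of genotype Cdh5CreERT2/+; Rpl22HA/+. Each had been gavaged with 5 mg of tamoxifen on 4 occasions at an age of 4 to 6 weeks, which switches on an HA-tagged ribosomal protein in cells that use the Cdh5 (VE-cadherin) promoter. Controls were taken at 0 hr, and the other mice were killed 6, 24, 48, 72 or 168 hr after an intraperitoneal dose of LPS at 10 mg/kg. Ribosomes were pulled down with an anti-HA antibody and their bound RNA was sequenced (RiboTag), so that the counts describe ribosome-bound messages and not total RNA. The model rests on 1 promoter, so any cell in which Cdh5-driven Cre acted carries the tag, and untagged RNA that comes through the pulldown is counted too. In such bulk samples, fewer cells of a type and less RNA per cell cannot be told apart.

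After runs of 1 library were summed, 98 libraries remained, and 80 of them were used, 28 from brain, 24 from lung and 28 from heart. The other 18 had 1.73% to 2.75% of their reads on genes and were left out. In order of time, the 6 groups held 5, 5, 4, 6, 4 and 4 libraries for brain and for heart, and 4, 4, 2, 6, 4 and 4 for lung. Counts on genes ranged from 284457 to 43417945 per library, and the median lung library held 11376798.5 counts, below the medians of 23645892 (brain) and 24082214 (heart). All 10 endothelial marker genes had counts in every tissue, but their summed level at 0 hr was 1830 to 3374 CPM (counts scaled to a common library size) in brain against 9880 to 16336 in lung and 10505 to 11941 in heart. RNA of the surrounding tissue was present in all 3. Brain libraries at 0 hr held neuron markers at 1065 to 4522 CPM over 6 genes and oligodendrocyte markers at 653 to 5175 CPM over 4. Lung libraries held alveolar epithelial markers at 2148 to 9030 CPM over 6 genes, and heart libraries cardiomyocyte markers at 3008 to 6061 CPM over 6.

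One library of each tissue at 6 hr stood apart from the others with that label. These 3 libraries belong to the first of the library series (sets of count files that share a naming pattern) and carry the same mouse number in it. Of 11 genes known for an acute response to LPS, such as Lcn2, Selp and Icam1, 11 were lower in the brain library (replicate 6) than in each of the other 6 hr brain libraries, and 10 did not exceed the highest 0 hr library. The exception in brain was Lcn2, at a log2 CPM of 8.18 against at most 5.22 at 0 hr. In the heart library (replicate 5), 11 were lower than in the other 6 hr libraries, but only 4 failed to exceed the highest 0 hr value, and Lcn2, at a log2 CPM of 5.55 against at most 4.31 at 0 hr, was among those above it. The lung library (replicate 4) held 284457 counts, a depth at which 3 reads amount to 86.7 CPM on the TMM scale used here. Of the 11 genes, 7 were below the other 6 hr lung libraries and 5 did not exceed the highest control, all on 0 to 5 reads each. They are called the doubtful libraries below, and the 6 hr changes of the genes described are given with them and without them. Because they were singled out by low levels of acute-response genes, leaving them out can by itself enlarge the 6 hr changes. The values without them are therefore no independent support for a call. A lung library at 0 hr (replicate 4) also stood apart, with 56.2% of its reads on genes against 18.8% to 28.6% in the other lung controls.

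Promoter sequences of 8 of the 10 genes were found in the RefSeq table for build GRCm38.p6, and those of Adm and Gch1, which rose after LPS, and of Ace and Ddah2, which fell, are shown because these 4 genes carry most of the results below. Each line gives the 250 bases before the annotated start, 5′ to 3′ on the gene's strand, with matches to a searched motif in capitals. The windows are chr7:110627407-110627656 (plus strand) for Adm, chr14:47189414-47189663 (minus strand) for Gch1, chr11:105967698-105967947 (plus strand) for Ace and chr17:35058785-35059034 (plus strand) for Ddah2.
Adm: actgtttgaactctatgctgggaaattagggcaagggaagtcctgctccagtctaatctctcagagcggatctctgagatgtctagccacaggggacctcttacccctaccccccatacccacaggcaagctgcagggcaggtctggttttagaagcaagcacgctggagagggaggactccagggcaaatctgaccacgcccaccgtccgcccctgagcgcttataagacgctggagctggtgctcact
Gch1: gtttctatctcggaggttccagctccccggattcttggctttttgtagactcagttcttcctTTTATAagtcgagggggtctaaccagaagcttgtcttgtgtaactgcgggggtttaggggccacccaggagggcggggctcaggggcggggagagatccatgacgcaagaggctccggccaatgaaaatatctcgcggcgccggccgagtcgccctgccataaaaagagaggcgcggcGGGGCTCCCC
Ace: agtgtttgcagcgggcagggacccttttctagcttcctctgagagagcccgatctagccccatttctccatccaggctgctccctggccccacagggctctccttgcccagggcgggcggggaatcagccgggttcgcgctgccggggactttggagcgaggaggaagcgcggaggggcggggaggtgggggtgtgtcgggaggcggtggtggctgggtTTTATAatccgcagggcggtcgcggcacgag
Ddah2: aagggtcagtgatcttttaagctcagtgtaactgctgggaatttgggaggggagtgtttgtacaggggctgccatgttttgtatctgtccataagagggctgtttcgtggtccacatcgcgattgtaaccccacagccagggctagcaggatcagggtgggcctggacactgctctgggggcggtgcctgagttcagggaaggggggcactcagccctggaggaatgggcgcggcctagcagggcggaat

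The 6 motifs searched on both strands were the NF-kB consensus and the interferon-stimulated response element, both by name, the hypoxia-response core ACGTG, the AP-1 site TGANTCA, the GATA site GATAA and the TATA box TATAAA. The Gch1 window held an NF-kB consensus 10 bases before the start, a motif found in 3.90% of 32851 promoter windows of this length, and a TATAAA on the reverse strand at 188 bases. The Ace window held TATAAA on the reverse strand at 31 bases, a motif found in 12.4% of windows. Neither the Adm nor the Ddah2 window held any of the 6. These matches describe the letters of the window and nothing about binding.

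At 0 hr the 3 vascular beds held these genes in different proportions. The levels of different genes were compared per kilobase of exon, as log2 CPM per kb. Ddah2 and Ece1 led in every tissue, with means of 5.30 and 4.91 in brain, 9.29 and 7.99 in lung and 6.96 and 6.90 in heart. Nos2, the inducible nitric oxide synthase, had the lowest mean level in brain (0.56) and lung (-0.07), but in heart its mean of 4.39 stood above Edn1 (3.23), Gch1 (2.75) and Ddah1 (1.96). Adm was next to last in lung at 0.10 and lay at 2.96 in brain and 4.56 in heart.

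**Figure D1:**
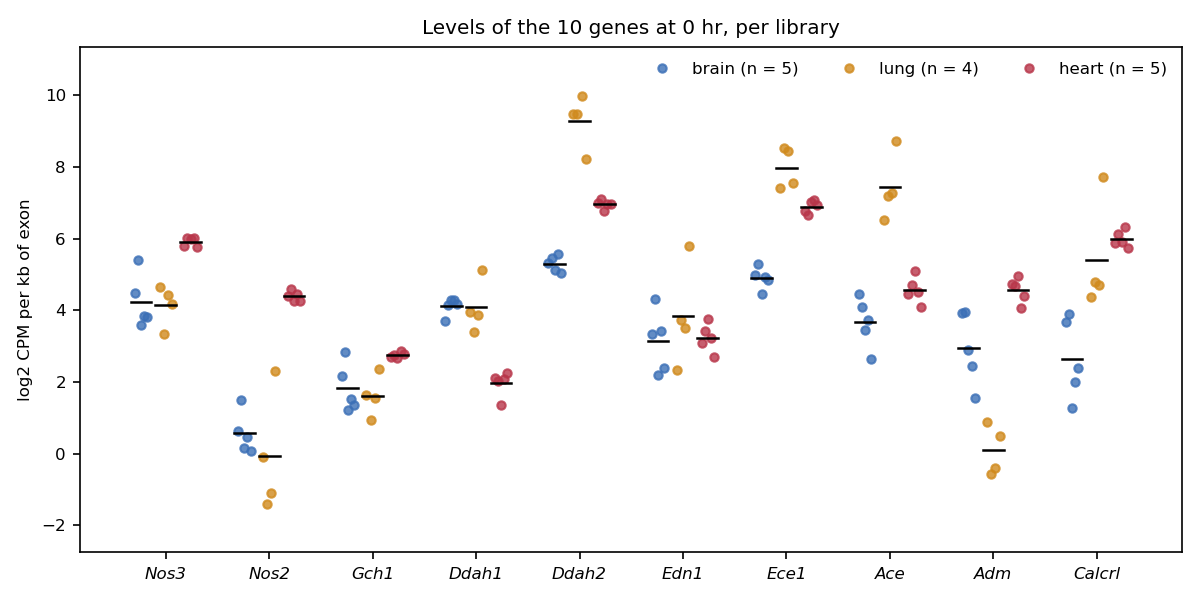
Level of each gene at 0 hr in log2 CPM per kb of exon (y axis), 1 point per library, coloured by tissue. Ddah2 and Ece1 have the highest means in all 3 tissues, and Nos2 and Adm show the widest gaps between heart and lung.

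Differences between tissues at 0 hr were tested with edgeR's quasi-likelihood test over 17730 genes and called at a Benjamini-Hochberg adjusted p under 0.05, which holds for every call below. Between brain and lung, 5 of the 10 genes were called, where 64.3% of all genes tested were. Between brain and heart 9 were called against 54.8% of all genes, and between lung and heart 8 against 61.1%. Endothelial markers themselves differed: 9 of 10 were lower in brain than in lung, with a median log2 difference of -1.57, and 9 of 10 were lower in brain than in heart, with a median of -2.27. Between lung and heart, 5 were lower in lung and 1 higher, with a median of -0.72. What part these differences have in the values below was not tested. Tissues of 1 mouse carry the same mouse number, and the fit with mouse as a block is named where it changes a call.

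Nos3, the endothelial nitric oxide synthase, was highest in heart. Its log2 CPM was 7.85, 8.06, 8.03, 8.08 and 7.82 in the 5 heart libraries, 6.54, 7.45, 5.63, 5.89 and 5.85 in brain, and 6.69, 5.40, 6.47 and 6.22 in lung. The heart values did not overlap either of the other tissues, and brain and lung overlapped each other. The log2 difference brain minus heart was -1.71 ± 0.30 (SE, adjusted p = 0.000202) and lung minus heart -1.79 ± 0.33 (adjusted p = 0.0003). Brain minus lung was 0.08 ± 0.31 and was not called, with a 95% interval of -0.53 to 0.69. In GRCm38 (GENCODE M21) the gene lies at chr5:24364810-24384474 on the plus strand, and 1334 bases of its exons overlap Gm15587 and Atg9b on the opposite strand. Whether counting used the strand is not given in the sources used here, so reads in that overlap are uncertain.

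Nos2 (chr11:78920787-78960254, plus strand) showed a wider gap. The 5 heart libraries held log2 CPM of 6.39 to 6.73, the brain libraries 2.22 to 3.64 and the lung libraries 2.06, 0.75, 1.04 and 4.44. Heart did not overlap brain or lung, and its level was 15.5-fold that of brain (log2 difference brain minus heart -3.95 ± 0.48, adjusted p = 4.62e-06) and 18.7-fold that of lung (-4.22 ± 0.56, adjusted p = 1.79e-05). Brain and lung were not told apart (0.27 ± 0.49), a result that depended on lung replicate 4: without it brain exceeded lung by 1.37 with an adjusted p of 0.000435. With mouse as a block the difference was 1.49 and was called (adjusted p = 0.000401).

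Gch1 (chr14:47153895-47189413, minus strand), which supplies the cofactor for both synthases, was also higher in heart, at 5.30 to 5.51, than in lung, at 4.29, 3.58, 4.18 and 4.99, with a log2 difference lung minus heart of -1.19 ± 0.28 (adjusted p = 0.00214). Brain ranged from 3.86 to 5.48, so that 1 brain library reached the heart range, and brain minus heart was -0.99 ± 0.26 (adjusted p = 0.00462). The 3 genes of nitric oxide synthesis were thus each higher in heart than in brain and lung.

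The dimethylarginine hydrolases divided the tissues in opposite ways. Ddah2 (chr17:35059035-35062095, plus strand) had a log2 CPM of 10.14, 10.17, 10.66 and 8.89 in lung, 7.45 to 7.77 in heart and 5.71 to 6.26 in brain, with no overlap between any 2 tissues. Lung was 18.2-fold above brain (log2 difference brain minus lung -4.19 ± 0.33, adjusted p = 7.03e-08) and 5.60-fold above heart (2.48 ± 0.31, adjusted p = 1.01e-05), and brain minus heart was -1.70 ± 0.29 (adjusted p = 0.000128). Ddah1 (chr3:145758675-145894277, plus strand) was instead lowest in heart, at 3.36 to 4.26, against 5.69 to 6.29 in brain and 5.38 to 7.13 in lung. Brain exceeded heart 4.29-fold and lung exceeded heart 4.56-fold, as log2 differences of 2.10 ± 0.28 (adjusted p = 1.26e-05) and 2.19 ± 0.30 (adjusted p = 2.24e-05). Brain and lung overlapped, with a difference in Ddah1 of -0.09 ± 0.29 and a 95% interval of -0.66 to 0.48.

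Of the endothelin genes, Edn1 (chr13:42301476-42307990, plus strand), which encodes the peptide's precursor, was not called in any of the 3 comparisons. Its log2 CPM was 3.30 to 5.41 in brain, 3.80 to 4.86 in heart and 3.44, 4.83, 4.61 and 6.89 in lung, and the 3 ranges overlapped. The brain minus lung difference was -1.03 ± 0.50 (adjusted p = 0.0843). Lung replicate 1 decided that call, since without it the difference was -1.35 (adjusted p = 0.0120) and lung minus heart was 1.17 (adjusted p = 0.0308). Ece1 (chr4:137862237-137965229, plus strand), the converting enzyme, was highest in lung at 9.82, 10.94, 10.85 and 9.96, intermediate in heart at 9.07 to 9.48 and lowest in brain at 6.87 to 7.71. None of the 3 tissues overlapped another for Ece1. Brain minus lung was -3.18 ± 0.30 (adjusted p = 4.23e-07), brain minus heart -1.99 ± 0.28 (adjusted p = 1.92e-05) and lung minus heart 1.19 ± 0.28 (adjusted p = 0.00213).

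Ace (chr11:105967945-105989964, plus strand) was highest in lung, with a log2 CPM of 8.92, 9.61, 9.68 and 11.12 there against 6.48 to 7.50 in heart and 5.06 to 6.85 in brain. Lung overlapped neither, and was 14.9-fold above brain (log2 difference brain minus lung -3.89 ± 0.41, adjusted p = 1.47e-06) and 7.66-fold above heart (2.94 ± 0.40, adjusted p = 2.54e-05). Brain and heart overlapped, and their difference of -0.96 ± 0.37 (adjusted p = 0.0382) was lost when any of 6 single libraries was left out, with values between -1.02 and -0.75 in those fits.

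Adm and its receptor followed different orders. Adm (chr7:110627661-110629820, plus strand) had a log2 CPM of 4.76 to 5.65 in heart, 4.61, 4.66, 3.60, 3.14 and 2.25 in brain and 1.58, 0.12, 0.30 and 1.19 in lung. No tissue overlapped another, and the differences in Adm were 3.06 ± 0.38 for brain minus lung (adjusted p = 7.40e-06), -1.66 ± 0.32 for brain minus heart (adjusted p = 0.000404) and -4.72 ± 0.41 for lung minus heart (adjusted p = 5.55e-07), the last a 26.3-fold gap. Calcrl (chr2:84330626-84425411, minus strand), by contrast, was high in heart (8.03 to 8.60) and in lung (6.66, 7.08, 7.00 and 10.00) and lower in brain (3.57 to 6.18). Brain did not overlap the other tissues for Calcrl and was 8.24-fold below lung (-3.04 ± 0.54, adjusted p = 0.000184) and 11.2-fold below heart (-3.48 ± 0.55, adjusted p = 6.51e-05). Lung minus heart was -0.44 ± 0.55 with lung replicate 4 and -1.25 (adjusted p = 0.0177) without it, and with mouse as a block it was -1.25 (adjusted p = 0.0357).

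The response to LPS was tested in each tissue against its own 0 hr libraries, with library series as a covariate. Since the 5 times share those controls, the changes below are not independent of each other. Across 150 tests of the 10 genes, 20 were called, 7 in brain, 3 in lung and 10 in heart, and 13 of these were at 6 hr. Without the 3 doubtful 6 hr libraries the total was 26, and with the 3 tissues in 1 fit it was 15.

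At 6 hr in brain, 3 of 10 genes were called against 6.44% of the 19234 genes tested. In lung the count was 3 against 4.83% of 17058, and in heart 7 against 42.8% of 16024. Without the doubtful library, the counts were 5 against 14.3% in brain, 2 against 3.95% in lung and 8 against 58.4% in heart. In absolute size, the median log2 change of the 10 genes at 6 hr was 0.71 in brain, where that of all genes tested was 0.27. It was 1.70 against 1.11 in lung, and 1.06 against 0.65 in heart. In lung the median change of all genes at 6 hr was itself -0.42.

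Later the calls thinned out. In brain, 1 gene was called at 24 hr against 11.2% of all genes, and 2 at 48 hr against 14.2%. At 72 hr 1 was called there against 3.53%, and by 168 hr the count was 0 against 0.0%. Heart had 2 calls at 24 hr (16.2% of all genes) and 1 at 48 hr (4.19%), then 0 at 72 hr (0.275%) and 0 at the end (0.0%). In lung 0 of 10 were called by edgeR at the 4 later times, where 0.375%, 0.598%, 0.193% and 0.0117% of all genes were. At 168 hr, 828 genes in brain and 680 in heart had an unadjusted p under 0.05 although none passed the adjustment.

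**Figure D2:**
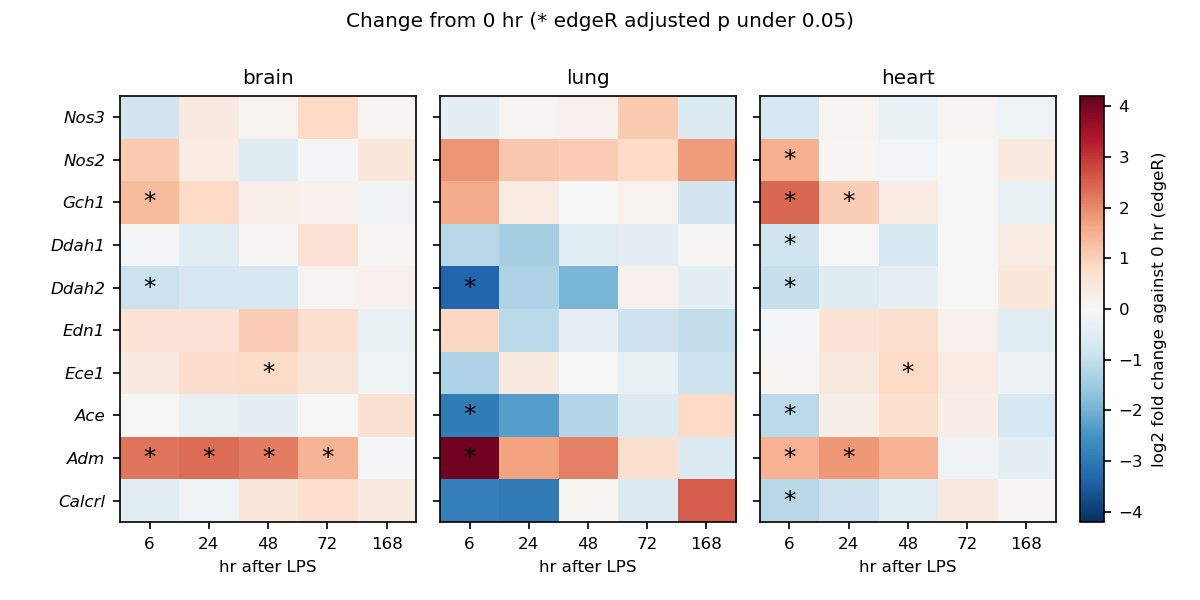
Log2 change from 0 hr (colour, red higher and blue lower) of the 10 genes (y axis) at each time in hours (x axis) in brain, lung and heart, with an asterisk where the edgeR adjusted p was under 0.05. Calls gather at 6 hr, and Adm is marked in all 3 tissues.

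Adm, the adrenomedullin gene, rose in all 3 tissues at 6 hr and stayed higher in brain to 72 hr. Its log2 CPM in brain was 4.61, 4.66, 3.60, 3.14 and 2.25 at 0 hr, then 5.74, 6.28, 5.57, 5.57 and 4.98 at 6 hr, and 6.03, 5.81, 7.01 and 8.02 at 24 hr. At 48 hr it ranged from 4.73 to 7.41 with a median of 6.74, and at 72 hr it was 5.05, 4.96, 5.63 and 5.89. Every brain library from 6 to 72 hr lay above every control.

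The change of Adm in brain was 2.24 ± 0.38 at 6 hr (adjusted p = 0.000529), 2.35 ± 0.40 at 24 hr (adjusted p = 0.00069), 2.13 ± 0.36 at 48 hr (adjusted p = 0.000616) and 1.43 ± 0.37 at 72 hr (adjusted p = 0.0264). The 6 hr value was 2.60 without the doubtful library. Without library series as a covariate it was 1.68 and was not called (adjusted p = 0.105). At 168 hr the difference was -0.04 ± 0.40, with a 95% interval of -0.83 to 0.75. The call at 72 hr was lost with limma-voom (adjusted p = 0.0531) and when any of 5 single libraries was left out.

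In heart, Adm read 4.76 to 5.65 at 0 hr, and at 6 hr 6.47, 7.17, 6.75 and 7.10 in 4 libraries against 4.86 in the doubtful one. The change was 1.45 ± 0.46 (adjusted p = 0.0154) with that library and 1.82 without it (adjusted p = 0.000598). At 24 hr all 4 libraries (6.91, 6.99, 8.03 and 8.90) exceeded every control, and the change was 1.83 ± 0.50 (adjusted p = 0.0195), not called without replicate 2 of that time (1.87, adjusted p = 0.0766). At 48 hr the 6 libraries spread from 5.41 to 8.93 and the change of 1.45 ± 0.47 was not called (adjusted p = 0.0777). It passed without replicate 5 at 6 hr (1.35) or replicate 1 or 2 at 48 hr (1.75 and 1.72).

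In lung, Adm went from 1.58, 0.12, 0.30 and 1.19 at 0 hr to 6.45, 4.25 and 2.29 at 6 hr, while the doubtful library held 0 reads, which reads as -3.35 on this scale. The 3 libraries with reads lay above all controls, and the change was 4.10 ± 1.05 (adjusted p = 0.0226), or 4.50 without the doubtful library (adjusted p = 0.0178). The size rested on replicate 1, the highest, without which it was 2.60 and not called (adjusted p = 0.133). The call was also lost without replicate 2 or replicate 3 of the lung controls, with values of 3.95 and 3.92, and with limma-voom (3.19, adjusted p = 0.0607) or ComBat (1.19, adjusted p = 0.384).

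Calcrl, the receptor, moved the other way in heart. Its log2 CPM was 8.17, 8.42, 8.19, 8.60 and 8.03 at 0 hr, and 5.40, 7.15, 5.73 and 7.22 at 6 hr with 8.34 in the doubtful library. Calcrl fell by a log2 change of -1.16 ± 0.36 (adjusted p = 0.0128), and by -1.73 without that library, where the groups did not overlap. In lung it read 6.66, 7.08, 7.00 and 10.00 at 0 hr and 5.58, 6.97, 3.60 and 4.86 at 6 hr. The last of these is 1 read in the doubtful library. The change of -2.87 ± 1.11 was not called (adjusted p = 0.12), nor was that of -2.69 without the doubtful library (adjusted p = 0.222). It was called at -4.02 without replicate 4 of 48 hr (adjusted p = 0.0352). The brain change of Calcrl at 6 hr was -0.44 ± 0.26, and -0.55 without the doubtful library.

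Gch1 rose in heart and brain. In heart its log2 CPM was 5.34, 5.40, 5.30, 5.51 and 5.42 at 0 hr and 8.23, 7.94, 8.68 and 7.40 at 6 hr, with 5.67 in the doubtful library, and all 5 lay above the controls. The change in heart was 5.38-fold, or 2.43 ± 0.34 on the log2 scale (adjusted p = 2.27e-05), and 2.80 without that library. At 24 hr Gch1 read 6.44, 6.65, 6.76 and 6.42 in heart, still above all controls, with a change of 1.02 ± 0.34 (adjusted p = 0.0442). That call was lost in 16 fits that left out 1 library, and with limma-voom (adjusted p = 0.0633).

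In brain Gch1 read 4.80, 5.48, 3.86, 4.18 and 3.99 at 0 hr and 5.97, 6.12, 5.67, 5.17 and 4.62 at 6 hr. The groups overlapped through the doubtful library, at 4.62, and replicate 4, at 5.17. The change was 1.33 ± 0.33 (adjusted p = 0.0115), and 1.69 without the doubtful library (adjusted p = 3.74e-05). Without library series as a covariate the change was 0.90 and was not called (adjusted p = 0.475). At 24 hr the brain change of 0.84 ± 0.34 was not called (adjusted p = 0.108).

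Lung gave no usable answer for Gch1 at 6 hr, because the 4 libraries read 6.72, -3.35, 5.14 and -3.35, and both low values are 0 reads in libraries of 2745503 and 284457 counts. The change of 1.56 ± 0.78 was not called (adjusted p = 0.226), nor was that of 1.98 without the doubtful library (adjusted p = 0.148). With ComBat-adjusted log2 values in limma it turned to -3.01 and was called (adjusted p = 0.0469).

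Nos2 rose in heart at 6 hr. The controls read 6.53, 6.73, 6.40, 6.60 and 6.39, and 4 libraries at 6 hr read 8.23, 8.84, 8.16 and 8.23, while the doubtful library, at 6.27, was below every control. The change of Nos2 in heart was 1.50 ± 0.40 (adjusted p = 0.00563) with it and 1.84 (adjusted p = 0.000156) without it. By 24 hr the heart libraries were back to 5.61 to 7.00, a change of 0.07 ± 0.45. In brain the 6 hr change of 1.10 ± 0.43 (adjusted p = 0.149) became 1.41 and was called (adjusted p = 0.0246) without the doubtful library. In lung, 3 libraries at 6 hr read 4.69, 4.36 and 3.43 against 2.06, 0.75, 1.04 and 4.44 at 0 hr, and the change was 1.84 ± 1.08, or 2.17 without the doubtful library, neither of them called.

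Nos3 was not called at any time in the fit over all libraries. In heart it read 7.82 to 8.08 at 0 hr, and at 6 hr 6.41, 6.60, 6.18 and 7.77 with 8.11 in the doubtful library. The groups overlapped only through that library, and the change was -0.73 ± 0.30 (adjusted p = 0.0552) with it and -1.08 (adjusted p = 0.00393) without it. The fit without replicate 4 at 6 hr also called it (-0.93, adjusted p = 0.0242), as did limma-voom (-0.88, adjusted p = 0.0214). In brain Nos3 read 4.80, 5.04, 4.93, 5.40 and 6.44 at 6 hr against 5.63 to 7.45 at 0 hr, a change of -0.81 ± 0.29 (adjusted p = 0.0982), which was -0.94 and just passed (adjusted p = 0.0488) without the doubtful library. From 24 hr on, the changes of Nos3 in heart lay between -0.27 and 0.13.

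Ddah2 fell at 6 hr in all 3 tissues. In heart it read 7.67, 7.77, 7.45, 7.63 and 7.63 at 0 hr and 6.16, 5.81, 6.29, 7.04 and 7.31 at 6 hr, with no overlap and a change of -0.98 ± 0.23 (adjusted p = 0.00211). In brain it read 5.99, 6.14, 5.78, 6.26 and 5.71 at 0 hr and 4.97, 4.45, 4.89, 4.99 and 5.91 at 6 hr, where the doubtful library, at 5.91, made the only overlap.

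The brain change of Ddah2 was -0.90 ± 0.24 (adjusted p = 0.0224), and without the doubtful library -1.25 (adjusted p = 0.000439). Leaving out 1 of 5 other libraries ended the call, with values from -0.86 to -0.75. So did leaving out the library series covariate (-0.92, adjusted p = 0.0524). The heart change without the doubtful library was -1.29.

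In lung, Ddah2 read 10.14, 10.17, 10.66 and 8.89 at 0 hr and -0.52, 6.19, 8.20 and 6.44 at 6 hr. All 6 hr values lay below all controls, but the first rests on 1 read and the last on 3, in libraries of 2678119 and 284457 counts. The change was -3.34 ± 0.86 (adjusted p = 0.0231), and without the doubtful library -3.18, where the call was lost (adjusted p = 0.0536). It was also lost without replicate 3 at 0 hr (-3.06) or replicate 2 at 6 hr (-3.11). At 48 hr Ddah2 in lung still lay between 7.51 and 8.42, below every control, with a change of -1.91 ± 0.74 that was not called (adjusted p = 0.336).

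Ddah1, the paralogue, was called only in heart at 6 hr, where it read 2.18, 2.66, 2.81, 3.37 and 3.99 against 3.36 to 4.26 at 0 hr. The groups overlapped, and the change of -0.84 ± 0.32 (adjusted p = 0.0404) was lost in 8 fits that left out 1 library and grew to -1.24 (adjusted p = 0.00223) without the doubtful one. In brain Ddah1 stayed within 0.60 of its control level at every time, as fitted log2 changes between -0.45 and 0.60, none called.

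Ace fell most in lung. It read 8.92, 9.61, 9.68 and 11.12 at 0 hr, then 6.68, 6.27, 7.96 and 7.44 at 6 hr, with no overlap. The last of these is from the doubtful library, where 5 reads give a log2 CPM of 7.18. The change was -2.94 ± 0.73 (adjusted p = 0.018), or -2.92 without the doubtful library (adjusted p = 0.0374). Leaving out replicate 1 or replicate 2 at 6 hr gave -2.74 and -2.71 and ended the call. At 24 hr the 2 lung libraries, at 7.81 and 6.94, were still below all controls, with a change of -2.32 ± 0.93 that was not called (adjusted p = 0.601).

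In heart, Ace read 6.86, 7.10, 7.50, 6.91 and 6.48 at 0 hr and 3.92, 5.00, 4.60, 6.44 and 7.25 at 6 hr. The doubtful library was the only one within the control range, and the change was -1.14 ± 0.43 (adjusted p = 0.0339) with it and -1.44 (adjusted p = 0.00806) without it. The call was lost without any of 5 other single libraries, with values from -1.08 to -0.83. It was also lost without library series as a covariate (-1.04, adjusted p = 0.101). In brain the difference for Ace was -0.01 ± 0.33, with a 95% interval of -0.65 to 0.63, and -0.05 without the doubtful library.

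**Figure D3:**
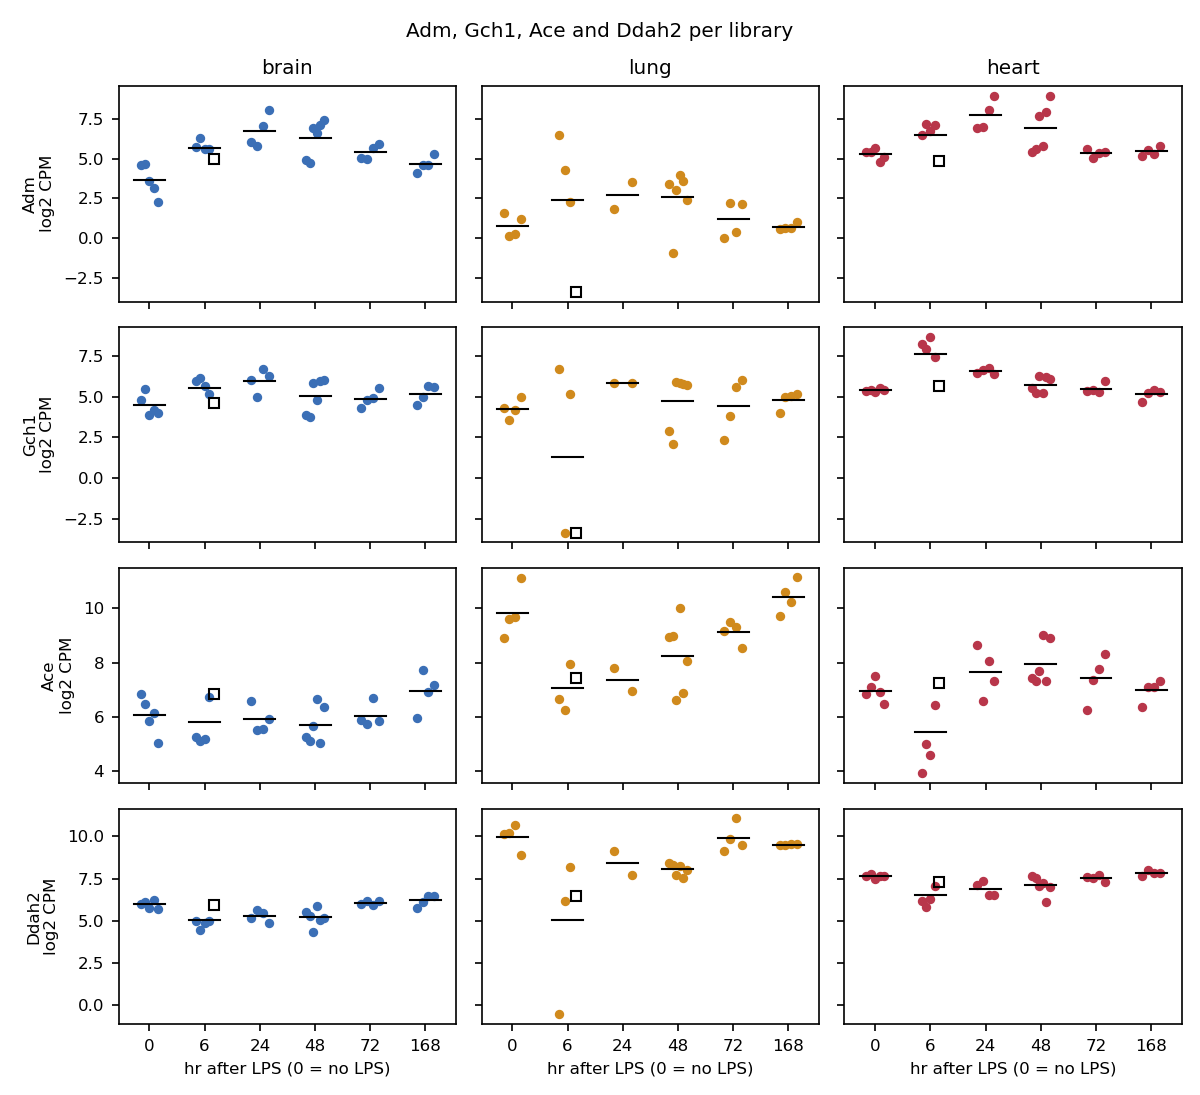
Log2 CPM (y axis) of Adm, Gch1, Ace and Ddah2 against time after LPS in hours (x axis), 1 point per library and a line at each group mean, for brain, lung and heart. The open squares mark the 6 hr library of the first library series, which in heart lies nearer the 0 hr values than the other 6 hr libraries for Adm, Gch1 and Ace.

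Ece1, which activates endothelin, was called at 48 hr and not at 6 hr. In heart it rose from 9.17, 9.07, 9.44, 9.48 and 9.34 at 0 hr to a range of 9.56 to 11.09 with a median of 10.37 at 48 hr, with no overlap and a change of 0.84 ± 0.21 (adjusted p = 0.0239), lost without any of 3 single libraries. In brain it went from 6.87 to 7.71 at 0 hr to a range of 7.11 to 8.91 with a median of 8.29, and the change of 0.79 ± 0.24 (adjusted p = 0.0307) was lost without any of 5 single libraries. Within the first library series alone the changes at 48 hr were 1.49 in heart and 1.31 in brain, and within the second 0.18 and 0.00, none of them called. In lung the 6 hr change of -1.30 ± 0.82 was not called, nor was that of -0.87 without the doubtful library, but it was -2.78 (adjusted p = 0.0105) without replicate 3, the highest at 10.74.

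Edn1 was not called at any time by edgeR over all libraries. Its largest fitted change in brain was 1.05 ± 0.37 at 48 hr (adjusted p = 0.0543), from 3.30 to 5.41 at 0 hr to a range of 4.25 to 6.81 with a median of 6.07, and leaving out 1 of 8 libraries brought it past the threshold. It also passed with DESeq2 (1.11, adjusted p = 0.0196), ComBat (adjusted p = 0.0111) and RLE scaling (adjusted p = 0.0444). In heart Edn1 read 5.21, 4.75, 5.72 and 5.65 at 24 hr against 3.80 to 4.86 at 0 hr, a change of 0.58 ± 0.28 that was not called (adjusted p = 0.134) but passed with ComBat (0.71, adjusted p = 0.0217). At 6 hr the differences for Edn1 were 0.60 in brain, 0.86 in lung and -0.09 in heart, and without the doubtful libraries 0.82, 1.39 and -0.19, none called. In lung, 1 library at 6 hr and 2 at 48 hr held 0 reads of Edn1.

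**Figure D4:**
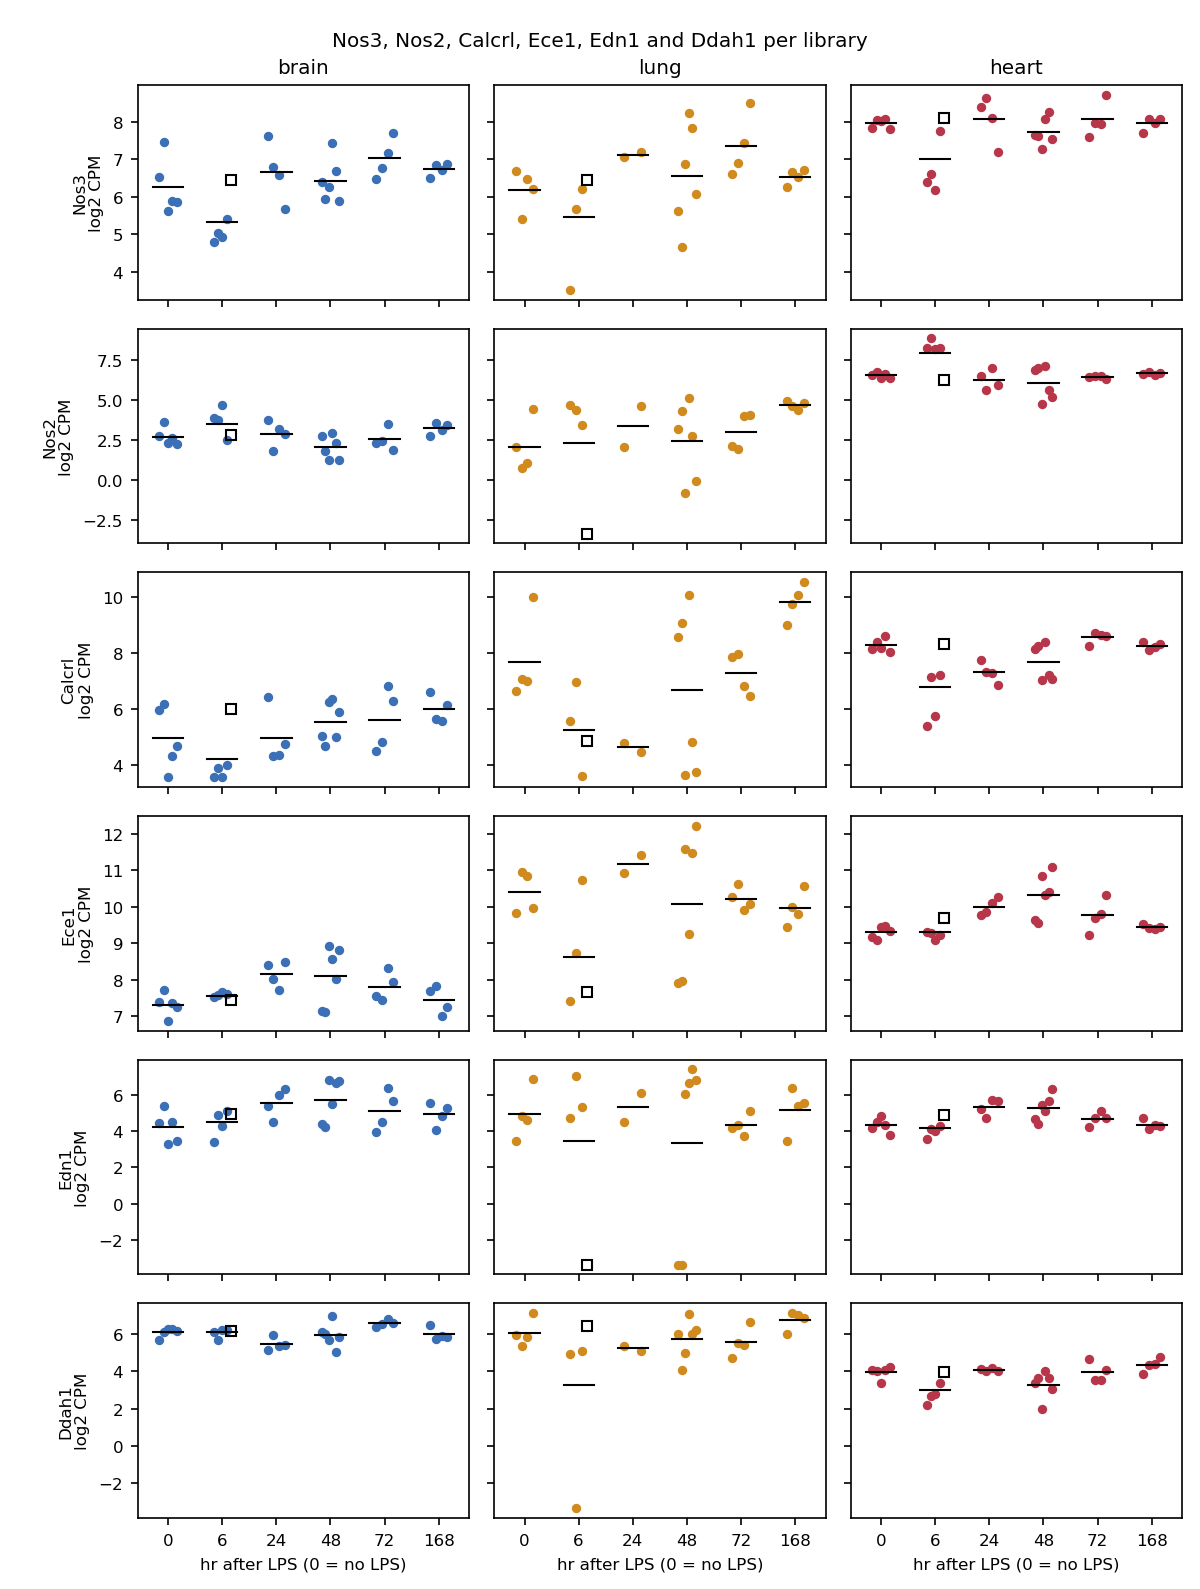
Log2 CPM (y axis) of Nos3, Nos2, Calcrl, Ece1, Edn1 and Ddah1 against time after LPS in hours (x axis), 1 point per library and a line at each group mean, with open squares for the 6 hr library of the first library series. Nos2 in heart is higher at 6 hr than at 0 hr in 4 of 5 libraries, and points at -3.35 are libraries with 0 reads.

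Markers of other cell types and of the endothelium moved with the changes after LPS. In lung the neutrophil markers went from 25.2 to 200 CPM at 0 hr to 0 to 3589 CPM at 6 hr, with 5 of 6 called higher, and the endothelial sum went from 9880 to 16336 down to 2279 to 9039, with 2 of 10 called lower and a median log2 change of -1.48. In heart the neutrophil sum was at most 0.812 CPM at 0 hr and 0.383 to 57.3 at 6 hr, with 4 of 6 markers called higher, and 8 of 10 endothelial markers fell, with a median change of -1.06. In brain 4 endothelial markers fell and 1 rose (median -0.42), and none of the neutrophil markers was called. Without the doubtful libraries, 4 neutrophil markers were called higher in lung, 4 in heart and 2 in brain, and endothelial markers called lower numbered 1, 9 and 4. The falls of Ddah2 (-3.34 ± 0.86) and Ace (-2.94 ± 0.73) in lung were larger in size than the median of the endothelial markers there. The spread of that median was not estimated, and Ddah2 rested on few reads in some of those libraries. The heart changes of Ddah2, Calcrl, Ace and Ddah1 lay within 1 SE of the endothelial median in heart. At later times, 3 neutrophil markers were higher in lung at 24 hr and 3 at 48 hr, and 4 were higher in heart at both times (medians 5.01 and 5.63). In brain at 48 hr, 4 of 5 macrophage markers (median 2.27) and 3 neutrophil markers were higher, and at 72 hr 3 macrophage markers (median 1.59), beside the calls of Adm and Ece1 there. What part these shifts have in the results was not tested.

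Library series could be examined apart only in part. The doubtful libraries are the only 6 hr libraries of the first series, and the last of the 3 series used holds no 0 hr library, so that 6 hr changes within a series come from the second alone, with 4 libraries at 6 hr in brain and heart and 3 in lung. There Adm rose by 2.75 in brain (adjusted p = 0.000169) and 1.70 in heart (adjusted p = 0.000153), and Gch1 by 1.78 (adjusted p = 0.000463) and 2.74 (adjusted p = 9.50e-06). Nos2 rose by 1.94 in heart and by 1.54 in brain (adjusted p = 0.0343), and Ddah2 fell by -1.09 in brain and -1.16 in heart. Nos3 fell by -0.73 in brain (adjusted p = 0.0170) and -1.08 in heart (adjusted p = 0.0116). In lung 0 of the 10 genes were called within the second series, where Adm read 4.71, Ddah2 -3.67 and Ace -2.73.

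Whether a change depended on the tissue was tested by an edgeR interaction over all 80 libraries and 22007 genes. At 6 hr, 3 of the 10 genes differed among tissues, where 17.3% of all genes did. Ace changed by -0.01 in brain, -2.94 in lung and -1.14 in heart (adjusted p = 0.0114). Ddah2 changed by -0.90, -3.34 and -0.98 in the same order (adjusted p = 0.0143), and Adm by 2.24, 4.10 and 1.45 (adjusted p = 0.0185). The Adm difference was not called with mouse as a block (adjusted p = 0.076) or limma-voom (adjusted p = 0.144). With ComBat then limma its largest difference between tissues was 0.78 (adjusted p = 0.837). For all 3, lung showed the change of largest size.

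Without the 3 doubtful libraries, 2 genes differed, against 23.0% of all genes, and Ddah2 was lost (adjusted p = 0.0535). The Adm difference was not called without lung replicate 1 at 6 hr (adjusted p = 0.409) or without lung replicate 2 or 3 at 0 hr, and the Ddah2 difference was not called without lung replicate 3 at 0 hr or replicate 2 at 6 hr. The Ace difference was called in all 28 fits that left out 1 library of 0 or 6 hr. None of the 10 was called at 24 hr (0.545% of all genes), 48 hr (1.75%), 72 hr (0.932%) or 168 hr (0.0636%), and Gch1, Nos2 and Nos3 were not called at 6 hr (adjusted p = 0.461, 0.746 and 0.71). With mouse as a block, Ace was called at 24 hr (adjusted p = 0.0163) and 48 hr (adjusted p = 0.042), and Nos2 at 168 hr (adjusted p = 0.00309).

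**Figure D5:**
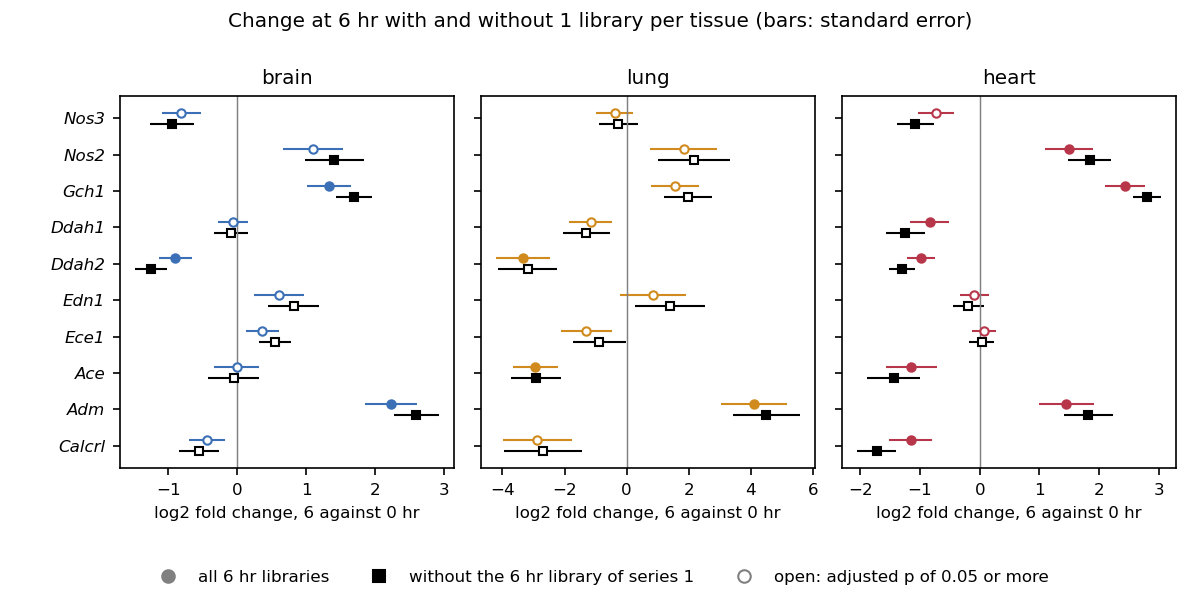
Log2 change at 6 hr (x axis) of each of the 10 genes (y axis) in brain, lung and heart, fitted with all libraries and without the 6 hr library of the first library series, with bars for the standard error. That library was singled out by low levels of acute-response genes, and in heart the changes are larger in size without it for 9 of the 10 genes, Nos3 among them.

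Other genes of these pathways were read from a list of 64, of which 57 were tested in brain, 52 in lung and 52 in heart. At 6 hr, 2 rose and 6 fell in brain, where 4.21% of all genes rose and 2.23% fell. In lung 2 rose and 7 fell (2.56% and 2.27% of all genes), and in heart 12 rose and 16 fell (22.4% and 20.3%). Without the doubtful libraries these counts were 4 and 9 in brain, 2 and 5 in lung and 14 and 22 in heart. In those fits 14.3%, 3.95% and 58.4% of all genes were called in either direction, in the same order. At 24 hr, 4 rose and 10 fell in brain (6.52% and 4.66% of all genes), 6 rose and 6 fell in heart (9.07% and 7.11%), and 0 were called in lung (0.363% and 0.0117%). At 48 hr the counts were 3 and 10 in brain (8.11% and 6.12%), 1 and 0 in lung (0.428% and 0.17%), and 2 and 1 in heart (3.08% and 1.11%). At 72 hr, 2 rose in brain (2.98%) and 1 in heart (0.275%), and at 168 hr edgeR called none in any tissue.

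Several of these are partners of the genes above. Ramp2, whose protein joins CALCRL to form an adrenomedullin receptor, fell by a log2 change of -1.69 ± 0.40 in brain (adjusted p = 0.00898) and -3.87 ± 0.79 in lung (adjusted p = 0.00516) at 6 hr, while Adm itself rose. Without the doubtful libraries the values for Ramp2 were -2.55 and -3.66. Ramp3, another such partner, rose by 2.25 ± 0.70 in brain at 24 hr (adjusted p = 0.0389). In heart at 6 hr, Ramp2 (-0.66, adjusted p = 0.0571) and Ramp3 (-0.65, adjusted p = 0.0767) were not called. Both were called lower there without the doubtful library (-1.03, adjusted p = 0.00177, and -1.05, adjusted p = 0.00395). Ackr3, described as a scavenging receptor for adrenomedullin, rose at 6 hr by 1.71 ± 0.50 in brain and 1.68 in heart (adjusted p = 0.00145). Without the doubtful libraries the values for Ackr3 were 2.08 and 1.98. In heart its rise at 24 hr was 1.66 ± 0.41.

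Among nitric oxide genes, Cav1, whose protein binds and inhibits NOS3, fell by -1.93 ± 0.56 in brain (adjusted p = 0.0373) and -2.04 ± 0.54 in heart (adjusted p = 0.00503) at 6 hr, or by -3.40 and -3.31 without the doubtful libraries. Slc7a2, a carrier of arginine, the substrate of nitric oxide synthases, rose 20.8-fold in heart at 6 hr (log2 change 4.38 ± 0.65, adjusted p = 3.74e-05, and 4.79 without the doubtful library) and 12.0-fold at 24 hr. Its relative Slc7a1 went both ways at 6 hr. It rose 4.95-fold in lung (2.31 ± 0.63, adjusted p = 0.0283) and 3.13-fold in heart (adjusted p = 0.000954), and fell in brain (-0.77, adjusted p = 0.0142), and the log2 changes without the doubtful libraries were 2.57, 1.98 and -0.92. Hsp90aa1, a chaperone that binds NOS3, rose by 2.08 ± 0.43 in heart at 6 hr (adjusted p = 0.000876), and by 2.52 without the doubtful library.

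Receptors and second messengers of other tone systems also changed. Aplnr, the apelin receptor, fell in all 3 tissues at 6 hr. The changes were -4.64 ± 0.96 in lung (adjusted p = 0.00552), -2.86 ± 0.69 in heart (adjusted p = 0.0028) and -2.36 in brain (adjusted p = 0.00937). Without the doubtful libraries they were -4.62, -3.85 and -3.22. Pde5a, which breaks down cyclic GMP, fell at 6 hr by -3.37 ± 0.88 in lung and -1.22 in heart (adjusted p = 0.0287). Without the doubtful libraries the values for Pde5a were -3.45 and -1.98. In brain its fall at 6 hr was called only without the doubtful library (-1.39, adjusted p = 0.0204). At 24 hr Pde5a fell by -1.49 ± 0.44 in brain and -1.80 ± 0.52 in heart. Edn3, a further endothelin, fell in brain by -2.05 ± 0.55 at 6 hr (-3.47 without the doubtful library) and -2.61 ± 0.63 at 24 hr. Bdkrb2, the bradykinin receptor, rose by 1.77 ± 0.59 in heart at 6 hr (adjusted p = 0.0192, and 2.14 without the doubtful library), and Nppb, a natriuretic peptide, rose by 2.98 ± 0.88 there at 24 hr.

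The genes whose group means over the 18 tissue and time groups were most like each of the 10, among 8967 genes compared, were found by Pearson's r and are given as a description, since the points share libraries, depth and tissue. For the nitric oxide genes these were Snap23 for Nos3 (r = 0.903), Meox1 for Nos2 (r = 0.961) and Polr3d for Gch1 (r = 0.957). Ddah1 was closest to Casc4 (r = 0.956), and Ddah2 to Ankrd44 (r = 0.961), which was also the third gene for Ace after Bcl9l (r = 0.953) and Bmpr2. Ece1 was closest to the endothelial gene Mcam (r = 0.980), Calcrl to Arhgef12 (r = 0.962) and Adm to Eif2b2 (r = 0.966) and Apold1 (r = 0.964). Edn1 had no close match, its highest r being 0.799 with Pus3.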

How the data were processed

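RiboTag RNA-seq libraries of brain, lung and heart endothelium were read from the authors' deposited count tables, which hold raw reads per gene and run (STAR 2.4.2 and HTSeq 0.6.1 on mm10, per the submitters' processing notes), with the annotation release and strand setting not given in the sources used here. The 217 runs were summed into 98 libraries, groups were taken from the labels, and libraries with under 3% of reads on genes were left out. Rows that name no gene stayed out of library sizes. Counts were scaled by TMM, filtered with filterByExpr and tested with edgeR 4.0.16 (R 4.3.3), quasi-likelihood, with library series as a covariate. Levels are given as log2 CPM after adding a prior count of 2, and per kb with exon lengths of GENCODE M21. Intervals of 95% come from the SE by the normal approximation. In simulated data with 200 changed genes, 99% of log2 changes of 2 were recovered for brain at 6 hr, 93% for heart and 71% for lung, and 46% for the test among tissues. File names give each library of a group a mouse number of its own (29 numbers over the 80 libraries, 23 of them with all 3 tissues), so tissues share mice, and mouse as a block was an alternative. The labels do not give these numbers. No pair of libraries agreed within sampling noise (lowest chi-square per degree of freedom 16.3). The genes and lists were chosen with earlier results of these data known, and the acute-response genes after their values were seen. The pathway genes named had the largest called changes at 6 and 24 hr among those whose mean level reached 2 on the log2 CPM scale, and 1 gene that this rule picks is not reported here. Alternatives were DESeq2 1.42.0, limma 3.58.1, ComBat (sva 3.50.0), RLE scaling, no filter, no series covariate, other library choices and a replicate block. For the LPS changes, the 3 tissues were also put in 1 fit. Each library was left out in turn, with edgeR's dispersion trend kept from the full fit. Promoters came from RefSeq.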

Additional observations from a re-analysis of the deposited data

Results flagged for a closer look

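Of 170 groups of 4 to 10 libraries examined for the 10 genes, 12 held a library whose distance from its nearest neighbour was large for the group's range (Dixon's criterion), where chance gives about 1 in 20. In log2 CPM, 6 of these are in lung: Nos2 at 6 hr in replicate 4 (-3.354, 0 reads), Ddah1 at 6 hr in replicate 2 (-3.354, 0 reads), Calcrl at 0 hr in replicate 4 (9.999 against 6.66 to 7.08), Adm at 48 hr in replicate 2 (-0.9513), Adm at 168 hr in replicate 5 (1.04) and Gch1 at 168 hr in replicate 1 (3.97). The 2 from the doubtful 6 hr libraries with ample counts were Calcrl in brain replicate 6 (5.982 against 3.54 to 3.97) and Nos2 in heart replicate 5 (6.273 against 8.16 to 8.84). The other 4 were Ace in brain at 72 hr in replicate 3 (6.709), Ddah1 in brain at 0 hr in replicate 1 (5.692) and at 6 hr in replicate 2 (5.709), and Ddah1 in heart at 0 hr in replicate 3 (3.363).

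The change at 6 hr differed among tissues by the edgeR interaction test for Ace (adjusted p = 0.0114146), Ddah2 (adjusted p = 0.0142671) and Adm (adjusted p = 0.0185251), each with its largest size in lung, the tissue with the shallowest libraries.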

How the results depend on the processing

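At 0 hr, 22 of 30 tests were called, and between 20 and 24 under the 13 alternatives run over all of them (21 to 24 when 1 library was left out). The 20 calls after LPS became 34 with ComBat then limma and 32 with no low-count filter, and 1 within library series 1 only, where each 6 hr group is 1 library (17 to 25 when 1 library was left out). The 3 tissue differences became 6 with ComBat, 7 with no low-count filter and 5 with mouse as a block (1 to 4 when 1 of the 28 libraries of 0 and 6 hr was left out, which was not run for later times). Leaving out the doubtful 6 hr libraries, an alternative added after seeing the data, gave 26 calls after LPS and 2 tissue differences. With the 3 tissues in 1 edgeR fit, 15 were called after LPS, with 11 calls ended and 6 added, all in lung. Calls ended in heart at 6 hr were Calcrl (adjusted p = 0.179), Ddah1 (0.116), Ddah2 (0.0955), Nos2 (0.0768) and Ace (0.0690). Later heart calls ended were Gch1 at 24 hr (0.219) and Ece1 at 48 hr (0.508). In brain they were Ddah2 (0.563) and Gch1 (0.120) at 6 hr, Ece1 at 48 hr (0.504) and Adm at 72 hr (0.313). With no library series covariate, edgeR called 22 after LPS, with 5 calls ended and 7 added. Those ended were Gch1 (adjusted p = 0.475), Adm (0.105) and Ddah2 (0.0524) in brain at 6 hr, Adm in brain at 72 hr (0.196) and Ace in heart at 6 hr (0.101). With the replicate block the counts were 23, 20 and 3. It ended the calls of Adm in brain at 72 hr (adjusted p = 0.0723), Gch1 in heart at 24 hr (0.135) and Ece1 in heart at 48 hr (0.0687), and called Calcrl in lung (-2.68, 0.0462) and Nos3 in heart (0.0173) at 6 hr, Edn1 in heart at 24 hr (0.0344) and Nos2 between brain and lung (0.0413). The paired reading has little to rest on, since libraries of 1 number, same tissue and other time deviated together with a median r of 0.0193 over 151 pairs, against -0.0188 for other numbers, and only 58 pairs passed 0.1. Libraries with the same mouse number in other tissues had a median r of 0.289 over 74 pairs.

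Among called changes, reversed directions came from library series 1 only for Gch1 in brain (-0.63), Ace (0.30), Nos2 (-0.33), Adm (-0.52) and Calcrl (0.0753) in heart and Adm in lung (-7.05), all at 6 hr and from 1 library. Of the 17 changes at 6 hr that were not called, 10 also had the other sign there. Gch1 in lung at 6 hr, not called in the text, was reversed and called with ComBat (-3.01). RLE scaling moved the median of all genes by 0.31 in lung at 6 hr, 0.15 in lung at 168 hr and 0.11 between lung and heart, turned none of the called directions, and raised the share of higher genes among calls in lung at 6 hr from 52.9% to 66.1%. Counts of all genes called at 6 hr ran over the alternatives from 0 (series 1 only) to 2760 in brain (1238 in the text), to 8361 with ComBat in lung (824) and to 9332 in heart (6854), and for the test among tissues from 2805 to 8964 (3809). At 24 hr they ran from 63 to 4613 in brain (2151), 0 to 805 in lung (64) and 41 to 5760 in heart (2594), and at 48 hr from 62 to 5010 (2738), 0 to 2405 (102) and 21 to 2092 (671). For tissue differences they ran from 52 to 905 at 24 hr (120) and 164 to 1019 at 48 hr (386). The causes were not tested. At these depths and group sizes, log2 changes of 1 in simulated data were recovered in 14% of cases for lung at 6 hr, 27% for heart, 39% for brain and 6% for the test among tissues.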

Other observations

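The 18 libraries left out, 6 per tissue and all of the third library series, held few reads of these genes. Nos3 had 5 to 11 reads in brain, 0 to 15 in lung and 5 to 29 in heart, and Ece1 had 5 to 18, 0 to 129 and 13 to 47. Ace reached 48 reads in lung against 6 in brain and 7 in heart. Edn1 was at 0 reads in 4 of 6 brain, 5 of 6 lung and 5 of 6 heart libraries, and Nos2 in 5, 5 and 2.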
